A study of Mus musculus with 34 samples.

Results

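The nonclassical MHC class I genes H2-Q4, H2-Q6, H2-Q7, H2-Q8, H2-T22, H2-T23 and H2-M3 were followed through mouse monocytes and macrophages of tumors, spleen and culture. They were chosen by symbol, through the Entrez Gene ID of each row, and make up 7 of the 24475 genes in the deposited table of estimated counts. The sum of H2-Q6 and H2-Q8 was analysed beside the single genes, because the estimated counts of similar H2-Q genes can be divided unequally.

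Polyadenylated RNA was sequenced in 34 libraries of cells from C57/Bl6 animals, isolated by fluorescence-activated sorting. From animals with tumors of MC38, a colon adenocarcinoma line, came 4 libraries each of Ly6C+ CD88+ Sca1+ tumor monocytes (TuMon1), tumor macrophages and Ly6C+ spleen monocytes. From animals with LLC tumors, grown from a Lewis lung carcinoma line, came 4 libraries each of Ly6C+ CD88+ Sca1- tumor monocytes (TuMon2), tumor macrophages and Ly6C+ spleen monocytes. Bone marrow monocytes in culture gave 4 untreated Ly6C+ control libraries, 3 libraries after MC38 supernatant, labelled with the TuMon1 phenotype, and 3 after LLC supernatant, labelled with the TuMon2 phenotype. Subset and tumor line coincide in the animals, where every TuMon1 library is of MC38 and every TuMon2 library of LLC origin, so their parts cannot be told apart. In culture, supernatant and labelled phenotype coincide in the same way, and their parts cannot be told apart there either. No group comes from an animal without a tumor, and the age and sex of the animals are not in the labels. That replicates came from separate animals or cultures is not stated in the labels, so p-values measure the spread between these samples, which may be technical.

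Classical class I molecules show peptides of the cell's own proteins to CD8+ T cells. The nonclassical molecules are encoded in the Q, T and M regions of the same complex and pair for the most part with the same light chain, beta-2 microglobulin, but vary little between individuals and meet more specialised receptors. H2-T23 encodes the heavy chain of Qa-1, which holds a leader peptide of other class I molecules and is read by the CD94/NKG2 receptors of natural killer and CD8+ T cells. H2-Q6, H2-Q7, H2-Q8 and H2-Q9 belong to the genes of the Qa-2 antigen, and H2-Q4 encodes Qb-1. H2-T22 is a ligand of a subset of gamma-delta T cells, and H2-M3 presents peptides that begin with N-formyl methionine, as bacteria and mitochondria make them. Interferons and the transactivator NLRC5 are known to raise class I genes in many cell types.

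On GRCm38, by the RefSeq annotation, the H2-Q genes lie together on chromosome 17: H2-Q4 (Entrez Gene ID 15015) at positions 35379617 to 35384674, H2-Q6 (110557) at 35424850 to 35430055 and H2-Q7 (15018) at 35439140 to 35443773. H2-T23 (15040) spans 36029977 to 36032701, H2-T22 (15039) 36037128 to 36042742 and H2-M3 (14991) 37270234 to 37274485 of the same chromosome. All are protein-coding genes. For H2-Q8 (15019) no sequence was analysed here.

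The promoters of H2-Q6, H2-Q7, H2-T22 and H2-T23 are shown because these genes went separate ways in LLC tumor macrophages, described further on. Each is the 250 bases before a RefSeq start of the gene, 5′ to 3′ on the gene's own strand, on GRCm38.p6. The H2-Q7 window ends just before 35439155, where GENCODE M21 starts the gene, so its end lies inside the RefSeq span given above. GENCODE M21 extends H2-T22 to 36042747 and H2-T23 to 36032855, so the ends of these windows nearest the gene lie inside the GENCODE genes. Capitals mark exact matches, on either strand, to the kappaB site of the class I enhancer A, to the core of the interferon-stimulated response element, to TGACGC (the X2 element) and to CCAAT (the CCAAT box). The longer runs of capitals are the kappaB site in the H2-Q promoters and the interferon response core, read on the opposite strand, in the H2-T promoters. The core in the H2-T23 window lies inside the GENCODE gene.
H2-Q6, chr17:35424600-35424849, + strand: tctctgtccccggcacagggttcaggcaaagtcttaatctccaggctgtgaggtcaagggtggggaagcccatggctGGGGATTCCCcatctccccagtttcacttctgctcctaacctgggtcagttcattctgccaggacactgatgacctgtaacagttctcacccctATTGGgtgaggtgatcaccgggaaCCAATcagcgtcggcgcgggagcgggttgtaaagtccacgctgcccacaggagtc
H2-Q7, chr17:35438905-35439154, + strand: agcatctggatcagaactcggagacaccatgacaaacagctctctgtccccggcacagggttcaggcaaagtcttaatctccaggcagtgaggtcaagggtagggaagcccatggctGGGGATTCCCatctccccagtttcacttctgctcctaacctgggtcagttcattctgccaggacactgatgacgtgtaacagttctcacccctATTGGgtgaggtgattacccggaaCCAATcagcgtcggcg
H2-T22, chr17:36042743-36042992, - strand: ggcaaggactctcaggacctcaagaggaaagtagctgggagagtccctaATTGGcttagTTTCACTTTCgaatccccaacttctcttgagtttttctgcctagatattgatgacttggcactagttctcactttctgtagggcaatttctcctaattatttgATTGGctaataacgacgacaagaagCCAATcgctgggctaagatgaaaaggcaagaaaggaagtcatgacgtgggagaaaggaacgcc
H2-T23, chr17:36032702-36032951, - strand: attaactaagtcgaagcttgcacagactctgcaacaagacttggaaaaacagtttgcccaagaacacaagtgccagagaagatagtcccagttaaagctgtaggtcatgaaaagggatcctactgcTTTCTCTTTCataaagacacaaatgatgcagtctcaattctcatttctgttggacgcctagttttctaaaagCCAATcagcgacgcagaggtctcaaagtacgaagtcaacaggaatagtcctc

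The kappaB letters were found before H2-Q6 and H2-Q7, and among the classical genes before H2-K1 and H2-D1. They occur in 0.0852% of 32851 RefSeq promoters of that length. The interferon response core was found before H2-T22 and H2-T23, and before B2m, the light chain gene. It occurs in 2.98% of promoters. The X2 letters were found before H2-M3, H2-K1 and H2-D1 (6.12% of promoters), and the CCAAT letters before all 6 members with a sequence (33.8% of promoters). H2-Q4 had exact matches to the CCAAT letters only. The exact matches do not overlap, and a match is a description and not a binding site. No match says only that these letters are not in the window. Near matches were not searched for and do occur. The H2-T22 interferon response match, without its last letters, also stands before H2-Q4, H2-Q6, H2-Q7, H2-M3, H2-K1 and H2-D1. The H2-Q4 window holds the kappaB letters with an inserted base. The exact matches therefore do not show that H2-Q genes lack an interferon element. Whether motifs bear on the split in LLC macrophages was not tested. Aligned to each other, the promoters of H2-Q6 and H2-Q7 were 97.6% identical over 210 bases and those of H2-Q4 and H2-Q6 88.9% over 234 bases, while H2-T22 and H2-T23 aligned over 48 bases.

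**Figure D1:**
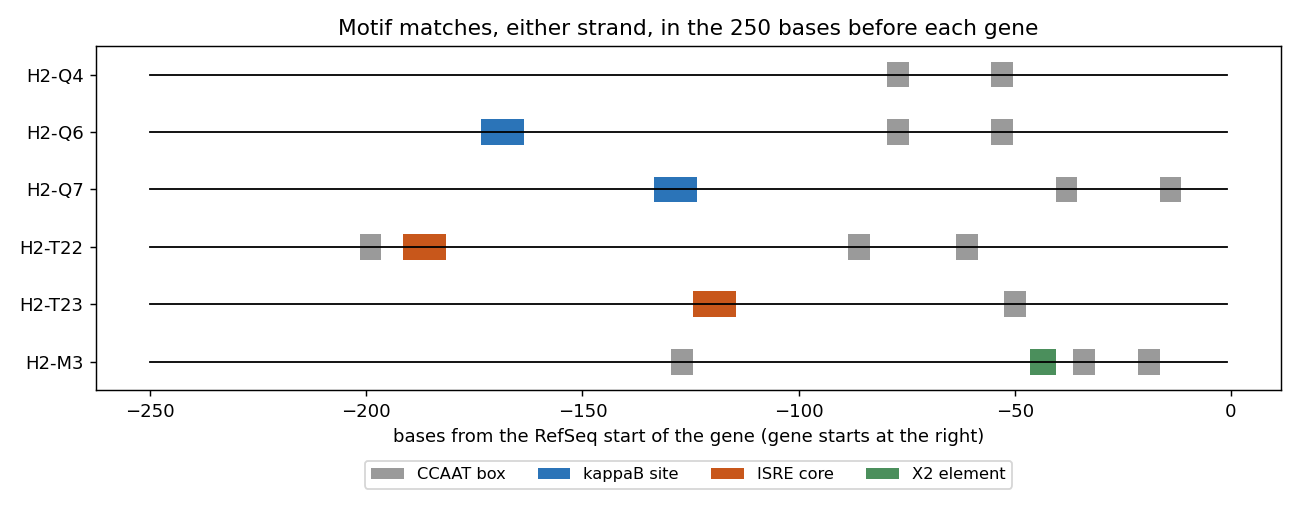
Positions of the motif matches (colored blocks) in the 250 bases before a RefSeq start of each of 6 members, with distance from the start in bases on the x axis. Only exact matches are drawn. The kappaB site is seen in H2-Q6 and H2-Q7, the interferon response core in H2-T22 and H2-T23, and the X2 element in H2-M3.

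The coding sequences show how far reads can tell the genes apart. A stretch of 60 coding bases on GRCm38 (GENCODE M21, + strand) is printed for the 3 H2-Q genes. It was chosen, within an exon, for having the most differences between H2-Q6 and H2-Q7, so it is not typical of the rest. Capitals mark the 16 positions where any of the 3 genes differ.
H2-Q6, chr17:35425119-35425178: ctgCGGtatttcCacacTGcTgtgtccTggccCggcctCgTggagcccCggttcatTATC
H2-Q7, chr17:35439463-35439522: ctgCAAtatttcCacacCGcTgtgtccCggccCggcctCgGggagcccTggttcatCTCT
H2-Q4, chr17:35379915-35379974: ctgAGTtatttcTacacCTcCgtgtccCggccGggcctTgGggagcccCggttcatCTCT

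In this stretch H2-Q7 differed from H2-Q6 at 10 positions and H2-Q4 differed from H2-Q6 at 14. Over the whole coding sequence H2-Q6 and H2-Q7 were 95.4% identical, H2-Q4 and H2-Q6 90.2%, and H2-T22 and H2-T23 73.2%. The share of 50-base coding stretches found also in another mouse gene was 56.3% for H2-Q7, 43.6% for H2-T22, 36.9% for H2-Q6, 29.6% for H2-T23 and 19.5% for H2-Q4. Among the genes searched, H2-Q6 shared most with H2-Q7 (30.6% of its stretches) and H2-T22 shared most with H2-T10 (32.8%). The search used GENCODE M21 transcripts, which include no gene named H2-Q8 or H2-Q9. Stretches shared only with these genes were therefore not counted, and the shares of H2-Q6 and H2-Q7 may be too low. H2-M3 shared 0.834%, so its counts depend least on how similar genes were told apart. The values of the other members are uncertain to the extent that the authors' counting divided reads among these genes.

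Library totals lay between 13047772 and 26966644 estimated counts. All 12 monocyte and macrophage markers examined had counts in each of the 9 groups, and their summed level was between 9740 and 28828 counts per 1000000 (CPM). Earlier results of these data showed 5 libraries with transcripts foreign to monocytes, namely replicates 1, 2 and 3 of MC38 spleen monocytes, replicate 3 of MC38 supernatant and replicate 2 of control culture. The summed CPM of 7 fat cell genes reached 10660 in MC38 spleen monocytes and at most 94.7 in the other groups. Tested differences of members that use these 5 libraries, and their ratios to H2-K1, are given with and without them, while the levels and the correlations of pattern use all libraries. In sorted bulk samples, fewer cells of a type and less RNA per cell cannot be told apart.

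H2-Q8 differed from the other members in how its counts were distributed. Its estimate rounded to a count above 0 in 9 of 34 libraries. These were all 8 libraries of MC38 tumor monocytes and macrophages and 1 of MC38 supernatant. In the 8 tumor libraries it equaled that of H2-Q6 within 0.1%. In the remaining 25 libraries, MC38 spleen monocytes and LLC tumors among them, the estimate was at most 8.58e-15. A fold for H2-Q8 therefore reflects the division between both genes as well as their level, and the sum of H2-Q6 and H2-Q8 is used for comparisons. H2-Q8 passed the filter on low counts only through the MC38 tumor libraries, so it is left out of the counts of members called, which are over the 6 others. All 6 passed the filter in both fits.

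**Figure D2:**
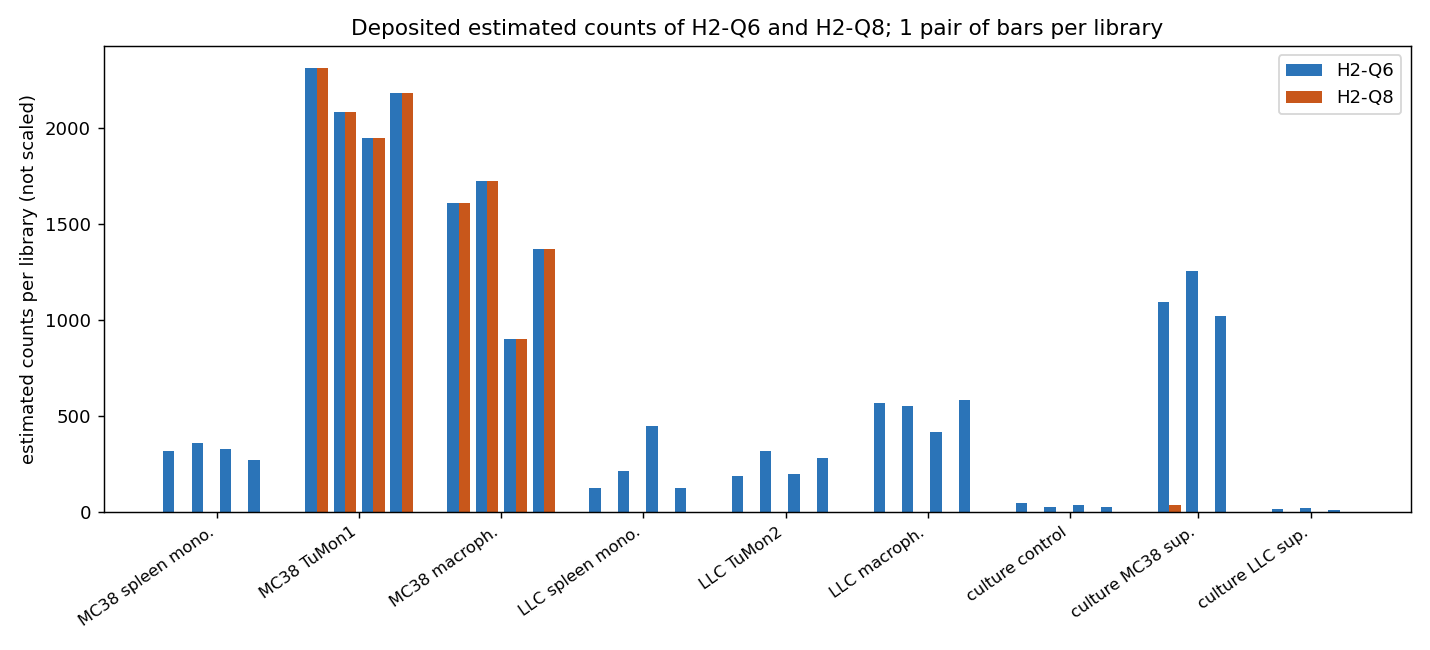
Deposited estimated counts (y axis, not scaled for depth) of H2-Q6 and H2-Q8 in each of the 34 libraries, grouped along the x axis. Both bars have equal height in the 8 MC38 tumor libraries, and H2-Q8 is at 0 in 25 of the other libraries.

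H2-T23, the gene of the Qa-1 heavy chain, was the member with the highest level per kilobase of transcript in 6 of the 9 groups. In CPM, TuMon1 libraries had 582.1, 566.0, 599.9 and 634.7, and MC38 macrophages had 398.6, 395.2, 387.0 and 358.0. TuMon2 libraries had 257.8, 262.0, 291.4 and 306.7, and LLC macrophages had 121.1, 103.9, 141.2 and 159.6. MC38 spleen monocytes had 218.8, 236.9, 216.3 and 278.0, and LLC spleen monocytes had 231.0, 263.0, 283.4 and 226.9. TuMon1 and MC38 macrophages stood above every other group of the animals, LLC macrophages stood below every other group, and the 3 groups between them overlapped with their neighbors. In culture the MC38 supernatant libraries had 425.5, 428.4 and 351.4 CPM, above the LLC supernatant libraries with 140.1, 137.1 and 139.8 CPM and the controls with 154.4, 123.7, 145.4 and 138.9 CPM, which overlapped each other.

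H2-Q4, the Qb-1 gene, had 844.6, 868.8, 821.0 and 884.8 CPM in TuMon1 and 566.1, 591.7, 550.4 and 607.4 CPM in MC38 macrophages. LLC macrophages had 246.5, 222.7, 219.7 and 256.4 CPM and TuMon2 had 223.9, 228.7, 248.6 and 233.8 CPM. Spleen monocytes had 183.1, 165.0, 182.0 and 204.8 CPM with MC38 tumors and 165.5, 138.9, 193.8 and 156.5 CPM with LLC tumors. The order was thus TuMon1, MC38 macrophages, LLC macrophages and TuMon2 with overlapping libraries, and both spleen groups, which overlapped each other. In culture H2-Q4 was at 332.2, 323.1 and 259.0 CPM after MC38 supernatant, 59.9, 59.9 and 55.6 CPM after LLC supernatant and 71.2, 54.1, 71.6 and 78.6 CPM in controls.

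The sum of H2-Q6 and H2-Q8, genes of the Qa-2 group, was 227.6, 216.6, 213.3 and 220.0 CPM in TuMon1 and 128.0, 135.9, 107.6 and 111.1 CPM in MC38 macrophages. LLC macrophages followed with 22, 25.3, 27.4 and 37.6 CPM, and TuMon2 with 16.3, 16.3, 14.8 and 16.0 CPM. MC38 spleen monocytes had 18.5, 14, 12.2 and 17.7 CPM and LLC spleen monocytes 8.08, 8.67, 18.4 and 8.22 CPM. These 3 lowest groups overlapped, and LLC spleen replicate 3 was the only library of its group above 10 CPM. In culture the sum was 51.1, 56.6 and 42.2 CPM after MC38 supernatant, 1.65, 1.91, 1.37 and 1.15 CPM in controls and 0.606, 0.792 and 0.427 CPM after LLC supernatant, with no overlap among the 3 groups.

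H2-Q7, another gene of the Qa-2 group, had 393.3, 421.1, 377.6 and 408.0 CPM in TuMon1 and 262.3, 253.6, 216.1 and 166.9 CPM in MC38 macrophages. LLC macrophages had 41.3, 47.5, 66.4 and 74.1 CPM and TuMon2 43.0, 43.7, 38.4 and 39.3 CPM. Spleen monocytes had 35.4, 32.5, 29.9 and 41.6 CPM with MC38 tumors and 29.5, 20.7, 37.8 and 28.4 CPM with LLC tumors. From LLC macrophages downward, each group overlapped with the next. In culture H2-Q7 was at 118.5, 118.6 and 99.5 CPM after MC38 supernatant, 5.74, 5.16, 5.71 and 2.62 CPM in controls and 1.90, 2.73 and 2.43 CPM after LLC supernatant, where control replicate 4 overlapped with the LLC supernatant libraries.

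H2-T22, the gamma-delta T cell ligand, had 328.6, 339.0, 290.1 and 295.3 CPM in TuMon1 and 204.3, 198.5, 191.9 and 114.8 CPM in MC38 macrophages. TuMon2 had 63.9, 78.6, 79.3 and 89.9 CPM, and LLC macrophages 39.1, 23.2, 34.0 and 34.4 CPM. Spleen monocytes had 53.7, 48.4, 60.9 and 64.9 CPM with MC38 tumors and 43.2, 64.6, 63.8 and 48.5 CPM with LLC tumors. TuMon2 and both spleen groups overlapped, and LLC macrophages were the lowest group of the animals with no overlap, as for H2-T23. In culture the MC38 supernatant libraries had 168.0, 159.4 and 142.9 CPM, the LLC supernatant libraries 37.2, 33.7 and 26.7 CPM and the controls 31.6, 23.6, 42.0 and 30.0 CPM.

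H2-M3, the gene of the N-formyl peptide presenter, had the smallest ratio of highest to lowest group mean among the animals' groups, with means from 38.7 to 110.2 CPM. TuMon1 had 107.6, 110.2, 111.7 and 111.4 CPM and MC38 macrophages 94.9, 87.3, 87.6 and 72.0 CPM. LLC spleen monocytes had 45.9, 53.7, 54.2 and 42.6 CPM and MC38 spleen monocytes 40.9, 42.4, 39.3 and 49.4 CPM. LLC macrophages had 42.8, 37.8, 44.7 and 52.5 CPM and TuMon2 39.9, 41.0, 37.3 and 36.6 CPM. Only TuMon1 and MC38 macrophages stood apart from the rest. In culture H2-M3 was at 75.2, 75.6 and 60.4 CPM after MC38 supernatant, 33.9, 38.0 and 35.4 CPM after LLC supernatant and 23.6, 32.2, 26.2 and 22.6 CPM in controls, and the 3 groups did not overlap.

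**Figure D3:**
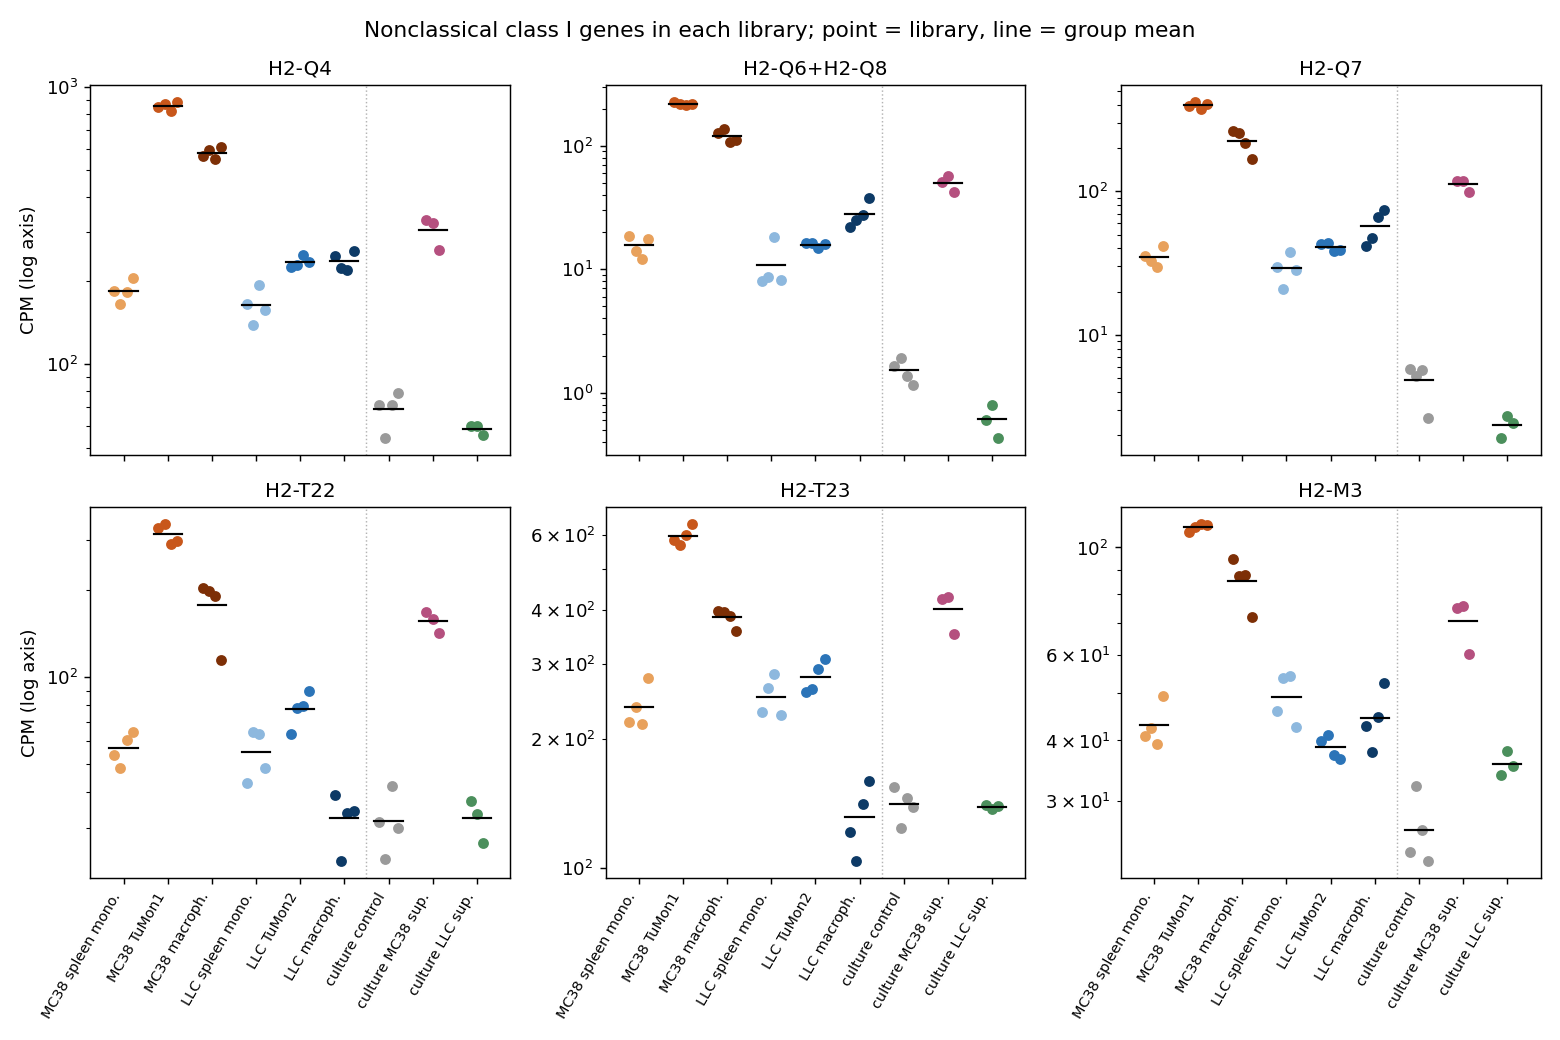
CPM (log axis) of each member in every library (points) with the group mean (line), the 6 groups from animals left and the 3 culture groups right of the dotted line. TuMon1 is highest for all 6 panels, and LLC macrophages are lowest among the animals' groups for H2-T22 and H2-T23 only.

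Per kilobase of transcript, H2-Q4 was the highest member in TuMon1 with 476.7 ± 15.6 CPM per kilobase (SD, n = 4), followed by H2-T23 with 404.7 ± 20 and H2-Q7 with 267.2 ± 12.5. H2-T22 stood at 177.9 ± 13.8, H2-M3 at 76.6 ± 1.3 and H2-Q6 alone at 52.6 ± 1.46 CPM per kilobase. In TuMon2 the same measure put H2-T23 first, with 189.9 ± 16.0, ahead of H2-Q4 with 130.4 ± 5.98. The classical heavy chain genes were higher in both, at 2433 ± 74.7 (H2-K1) and 1939 ± 60.6 (H2-D1) CPM per kilobase in TuMon1 and 767.1 ± 32.6 and 943.4 ± 49.5 in TuMon2. Of the counts on the 7 members together with H2-K1 and H2-D1, the members held 23.7% ± 0.138 (SD, n = 4) in TuMon1 and 17.6% ± 0.597 in TuMon2. That share was 21% ± 0.436 in MC38 and 14.8% ± 0.422 in LLC macrophages, and 13% ± 0.0851 and 13.3% ± 1.15 in the spleen monocytes of the same animals' groups. In culture it was 18.9% ± 0.452 (n = 3) after MC38 supernatant, 12.1% ± 0.274 (n = 3) after LLC supernatant and 14% ± 0.342 (n = 4) in controls.

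TuMon1, the Sca1+ tumor monocytes, was set against TuMon2, the Sca1- tumor monocytes, to find how the subsets differ in the animals. All 6 members other than H2-Q8 were higher in TuMon1, where 48.9% of 13200 genes tested were called at an adjusted p of at most 0.05, 26.8% higher and 22.1% lower. The Qa-2 genes differed most and the Qa-1 gene least. The sum of H2-Q6 and H2-Q8 was higher by 3.79 ± 0.22 on the log2 scale (SE; 13.8-fold, adjusted p = 2.08e-11) and H2-Q7 by 3.28 ± 0.19 (9.73-fold, adjusted p = 9.13e-12). H2-Q6 alone was higher by 2.79 ± 0.21 (6.92-fold, adjusted p = 9.52e-10), since counts of H2-Q8 enter the sum in TuMon1 only. H2-T23 was higher by 1.09 ± 0.11 (2.13-fold, adjusted p = 8.99e-09). Between them lay H2-T22 with 2.01 ± 0.18, H2-Q4 with 1.87 ± 0.09 and H2-M3 with 1.51 ± 0.10. With all 9 rows named H2-Q summed into 1, the log2 difference was 2.35 ± 0.11, smaller than for the sum of H2-Q6 and H2-Q8 and in the same direction. The median log2 difference of the 6 members was 1.94, against 0.06 over all genes tested.

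Of 17 other nonclassical class I genes tested in this comparison, 9 were higher and none lower, with a median log2 difference of 1.33. H2-T10, the close relative of H2-T22, stood at 53.9 against 12.8 CPM (2.08 ± 0.13), H2-Q5 at 200.3 against 41.1 CPM (2.28 ± 0.16) and H2-Q9 at 154.1 against 25.2 CPM (2.61 ± 0.29). H2-T24 was higher by 1.33 ± 0.11. Of 23 genes of classical class I, the light chain and peptide loading, 16 were higher and 3 lower. Nlrc5, the class I transactivator, was at 417.5 against 223.2 CPM (0.90 ± 0.11), and Tapbp, the gene of tapasin, which holds class I molecules at the peptide transporter, was higher by 0.88 ± 0.08. Of 7 receptor genes tested, 2 were higher and 1 lower. Klrk1, the gene of the NKG2D receptor, was at 153.1 against 23.7 CPM, Cd8a at 0.803 against 0.139 CPM, and Pilra, an inhibitory receptor gene, at 204.9 against 357.5 CPM. Klrc1 and Klrd1, which encode the Qa-1 receptor chains NKG2A and CD94, were under 1 CPM in both subsets and did not pass the test.

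Markers of other cells moved with the subsets. The summed level of 12 T and NK cell genes lay between 11 and 13.3 CPM in TuMon1 and between 1.94 and 3.25 CPM in TuMon2, with 5 of 9 tested higher. Cd3e lay between 0.156 and 0.494 CPM in TuMon1 and was at 0 in every TuMon2 library. The sum of 9 dendritic cell genes lay between 29.8 and 38.5 CPM against at most 12.1 CPM, with 5 of 9 higher. B cell genes were at 6.70 to 8.23 against 2.63 to 5.28 CPM with 2 of 5 tested higher, fibroblast and endothelial genes at 232.0 to 312.2 against 50.5 to 77.6 CPM with 2 of 10 higher and 1 lower. Neutrophil genes were at 28 to 35 against 85.2 to 123.1 CPM (1 higher and 4 lower of 10) and epithelial genes at 5.65 to 7.83 against 41.3 to 65.6 CPM (3 of 3 tested lower). Their part in the class I differences was not tested.

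MC38 tumor monocytes were set against MC38 spleen monocytes, which asks how the tumor subset differs from monocytes of the same tumor's animals elsewhere. All 6 members other than H2-Q8 were higher in the tumor, where 70.1% of genes tested were called and 33.5% were called higher. The sum of H2-Q6 and H2-Q8 was higher by 3.82 ± 0.22 on the log2 scale (14.2-fold, adjusted p = 2e-12), H2-Q7 by 3.52 ± 0.19, H2-T22 by 2.46 ± 0.18 and H2-Q4 by 2.22 ± 0.09. H2-M3 was higher by 1.36 ± 0.10 and H2-T23 by 1.33 ± 0.11. H2-Q6 alone was higher by 2.82 ± 0.21. Without the foreign-transcript libraries, which leaves 1 spleen library assumed to vary like the other groups, the values were 3.62 for the sum, 2.62 for H2-Q6, 3.26 for H2-Q7, 2.27 for H2-T22, 2.06 for H2-Q4, 1.15 for H2-M3 and 1.09 for H2-T23, all still called. Of 17 other nonclassical genes 8 were higher and 4 lower, and Nlrc5 was higher by 1.58 ± 0.11. Neutrophil genes summed to 533.2 to 2335 CPM in these spleen libraries and 28 to 35 CPM in TuMon1, with 8 of 10 lower and 1 higher in the tumor, a difference whose part was not tested.

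LLC tumor monocytes differed much less from LLC spleen monocytes. There 4 members were higher and 1 lower, where 62.6% of genes tested were called, 28.6% higher and 34.0% lower. H2-Q4 was higher by 0.51 ± 0.08 on the log2 scale (adjusted p = 8.69e-06), with no overlap between the libraries. H2-Q7 was higher by 0.50 ± 0.18 (adjusted p = 0.0203), H2-T22 by 0.50 ± 0.18 (adjusted p = 0.0171) and H2-Q6 by 0.53 ± 0.22 (adjusted p = 0.0387). H2-M3 was lower (-0.35 ± 0.10, adjusted p = 0.00363), and H2-T23 differed by 0.15 ± 0.11 without passing (adjusted p = 0.212). The calls of H2-Q6, H2-Q7 and H2-T22 rest on single libraries. With any 1 of LLC TuMon2 replicates 1, 2 and 4 or LLC spleen replicates 1, 2 and 4 left out, 3 members were called in place of 5. H2-Q6 with the replicate number as a block differed by 0.54 (adjusted p = 0.0562), and without the foreign-transcript libraries by 0.52 (adjusted p = 0.055). H2-K1 did not pass (-0.05 ± 0.09, adjusted p = 0.637), H2-D1 was lower (-0.25 ± 0.08) and Nlrc5 was higher (0.64 ± 0.11). T and NK cell genes summed to 38.9 to 60.3 CPM and neutrophil genes to 2233 to 3558 CPM in LLC spleen libraries, and to at most 3.25 and 123.1 CPM in TuMon2, and their part was not tested.

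The tumor minus spleen difference was itself larger with MC38 for 6 members (42.9% of genes tested were called, 23.8% larger and 19.1% smaller with MC38). Over all genes 3142 were larger and 2519 smaller, which became 2664 and 2962 under RLE scaling, 2764 and 3190 with DESeq2, and 2438 and 3064 with no filter, while the 6 members stayed larger. The excess on the log2 scale was 3.30 ± 0.30 for the sum of H2-Q6 and H2-Q8, 3.03 ± 0.26 for H2-Q7, 2.29 ± 0.30 for H2-Q6, 1.96 ± 0.25 for H2-T22, 1.71 ± 0.14 for H2-M3, 1.70 ± 0.12 for H2-Q4 and 1.17 ± 0.15 for H2-T23. H2-Q8, at 0 in 3 of the 4 groups, gave no usable estimate. Without the foreign-transcript libraries the excess was 3.10 for the sum, 2.76 for H2-Q7, 2.10 for H2-Q6, 1.76 for H2-T22, 1.5 for H2-M3, 1.54 for H2-Q4 and 0.94 for H2-T23, all called. The spleen monocytes themselves gave no call for a member between MC38 and LLC animals by edgeR, where 28.4% of genes were called, 1903 higher and 1852 lower of 13200. Leaving out the foreign-transcript libraries leaves 1 MC38 spleen library against 4 of LLC, which gives little power for calls. With all libraries, 1 member had an unadjusted p under 0.05 by edgeR, and DESeq2 called 2 members. H2-Q6 differed by 0.50 ± 0.21 (adjusted p = 0.0874), and by 0.89 (adjusted p = 0.000325) once LLC spleen replicate 3, its highest library, was left out. H2-T22 differed by 0.05 ± 0.18, H2-T23 by -0.08 ± 0.11 and H2-M3 by -0.20 ± 0.10. Without the foreign-transcript libraries the differences were 0.69 for H2-Q6, 0.52 for H2-Q7, 0.33 for H2-Q4, 0.24 for H2-T22, 0.15 for H2-T23 and 0.01 for H2-M3. With 1 MC38 spleen library, these values do not show that the spleen groups are equal.

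Macrophages of MC38 tumors had less of all 6 members other than H2-Q8 than the monocytes of those tumors, where 52.7% of genes tested were called, 27.9% lower and 24.8% higher. Under upper quartile scaling the count over all genes turned to 4110 higher and 2960 lower from 3274 and 3680, while all 6 members stayed lower. H2-Q6 differed by -0.86 ± 0.20 on the log2 scale (adjusted p = 0.000885), H2-Q7 by -0.83 ± 0.17 (adjusted p = 0.000356) and H2-T22 by -0.82 ± 0.17 (adjusted p = 0.000405). H2-T23 differed by -0.63 ± 0.11, H2-Q4 by -0.56 ± 0.08 and H2-M3 by -0.37 ± 0.10 (adjusted p = 0.0023). No member's libraries overlapped between the groups. H2-K1 (-0.40 ± 0.09), B2m (-0.34 ± 0.07) and Nlrc5 (-0.86 ± 0.11) were lower too, as were 16 of the 23 classical and peptide loading genes, with 3 higher. B cell genes summed to 28.9 to 31.7 CPM in these macrophages and 6.70 to 8.23 CPM in TuMon1, with 1 of 5 tested higher. Neutrophil genes summed to 9.62 to 14.7 against 28 to 35 CPM with 2 of 10 lower, and T and NK cell genes to 7.48 to 13.2 against 11 to 13.3 CPM with 2 of 9 lower. Fibroblast and endothelial genes summed to 168.7 to 205.3 against 232.0 to 312.2 CPM with 2 of 10 lower, and the dendritic cell list had 1 gene higher and 2 lower among 9. Their part was not tested.

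In LLC tumors the same step split the members. H2-T22 and H2-T23 were lower in macrophages, by -1.26 ± 0.18 (adjusted p = 4.29e-06) and -1.09 ± 0.11 (adjusted p = 8.51e-09) on the log2 scale. H2-Q6 was higher by 0.82 ± 0.21 (adjusted p = 0.00223) and H2-Q7 by 0.48 ± 0.18 (adjusted p = 0.0274). H2-Q4 (0.02 ± 0.08, adjusted p = 0.891) and H2-M3 (0.20 ± 0.10, adjusted p = 0.0906) did not pass. H2-M3 was called under upper quartile scaling (0.35, adjusted p = 0.00228) and without LLC macrophage replicate 2 (0.26, adjusted p = 0.0329). Of all genes tested 55.5% were called, 29.2% higher and 26.3% lower, and under upper quartile scaling 5053 higher and 2590 lower in place of 3859 and 3471. The H2-Q7 call was lost when any 1 of LLC macrophage replicates 3 and 4 or of the 4 TuMon2 libraries was left out (0.32, adjusted p = 0.138, without LLC macrophage replicate 4), and with no filter on low counts. With all H2-Q rows summed the difference was 0.19 ± 0.10 (adjusted p = 0.129), and did not pass. H2-T24, another T region gene, was lower (-1.63 ± 0.11), as was Nlrc5 (-1.33 ± 0.11), while H2-K1 (-0.04 ± 0.09, adjusted p = 0.711) did not pass and H2-Q9 was higher (0.93 ± 0.28). Neutrophil genes summed to 9.47 to 17.6 CPM in LLC macrophages and 85.2 to 123.1 CPM in TuMon2, with 8 of 10 lower, and among 9 dendritic cell genes 4 were higher and 1 lower. Epithelial genes summed to 91.6 to 143.6 CPM in LLC macrophages and 41.3 to 65.6 CPM in TuMon2, with 1 of 3 tested higher and 0 lower. Their part was not tested.

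The macrophage minus monocyte difference was unequal between the tumors for 5 members, where 14.5% of genes tested were called, 6.25% with MC38 above LLC and 8.27% below. It was lower with MC38 by -1.68 ± 0.29 for H2-Q6, -1.31 ± 0.25 for H2-Q7, -0.58 ± 0.12 for H2-Q4 and -0.57 ± 0.14 for H2-M3 on the log2 scale. For H2-T23 it was higher with MC38 by 0.46 ± 0.15 (adjusted p = 0.041), a call lost without any 1 of 10 single libraries. For H2-T22 it was 0.44 ± 0.25 and did not pass (adjusted p = 0.27). Set directly against each other, MC38 macrophages had more of all 6 members other than H2-Q8 than LLC macrophages (45.3% of genes tested were called, 22.4% higher). The log2 difference was 2.44 ± 0.18 for H2-T22, 2.11 ± 0.20 for the sum of H2-Q6 and H2-Q8, 1.97 ± 0.18 for H2-Q7, 1.55 ± 0.11 for H2-T23, 1.29 ± 0.08 for H2-Q4, 1.11 ± 0.20 for H2-Q6 alone and 0.94 ± 0.10 for H2-M3. This comparison shares its macrophage libraries with those above. T and NK cell genes summed to 7.48 to 13.2 CPM in MC38 and 2.78 to 5.90 CPM in LLC macrophages, with 5 of 9 tested higher. B cell genes summed to 28.9 to 31.7 against 2.57 to 4.97 CPM with 1 of 5 higher, and fibroblast and endothelial genes to 168.7 to 205.3 against 32.3 to 54 CPM with 3 of 10 higher. Epithelial genes summed to at most 8.12 CPM against 91.6 to 143.6 CPM with 3 of 3 lower, and the dendritic cell list had 3 genes higher and 2 lower among 9. Their part was not tested.

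**Figure D4:**
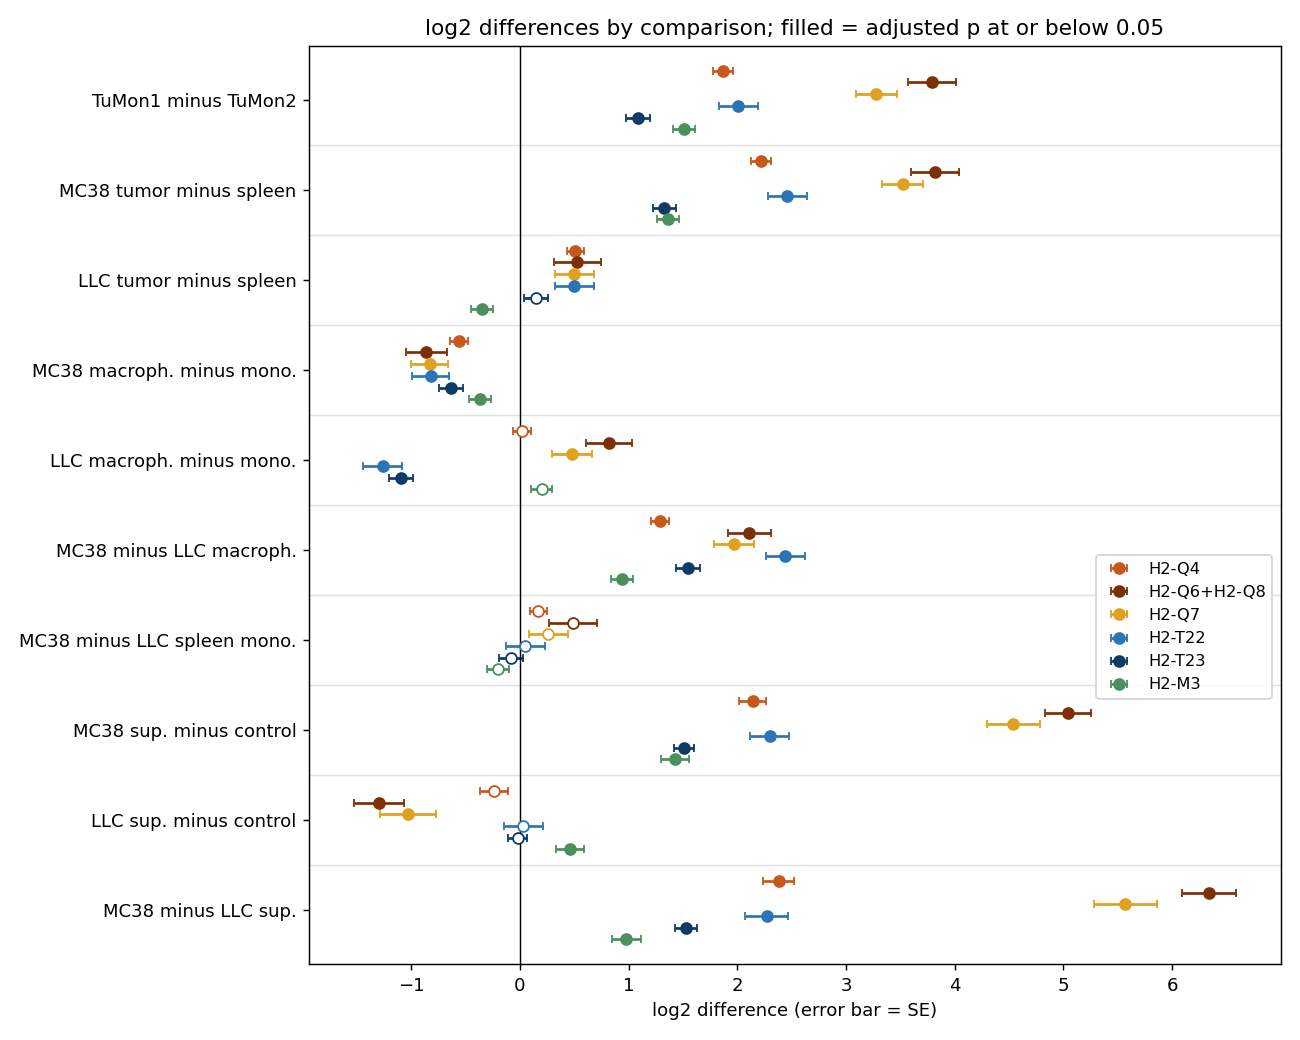
Log2 differences (x axis, error bar SE) of the members in 10 comparisons (rows), filled where the adjusted p is at most 0.05. H2-Q6 with H2-Q8 and H2-Q7 lie farthest right in the rows where MC38 tumor monocytes or MC38 supernatant are the first group. In MC38 minus LLC macrophages H2-T22 lies farthest right, and in MC38 macrophages minus monocytes all members lie left of 0. In the row of LLC macrophages minus monocytes H2-Q6 with H2-Q8 and H2-Q7 lie right of 0 while H2-T22 and H2-T23 lie left of it.

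Cultured bone marrow monocytes given tumor cell supernatants were compared with untreated controls and with each other. A difference between these groups holds both the supernatant and the labelled phenotype. After MC38 supernatant all 6 members tested were higher than in untreated controls, where 67.9% of 12603 genes tested were called and 35.4% were called higher. H2-Q6 was higher by 5.03 ± 0.21 on the log2 scale (32.6-fold, adjusted p = 7.96e-09) and H2-Q7 by 4.54 ± 0.24 (23.2-fold, adjusted p = 1.41e-07). H2-T22 was higher by 2.30 ± 0.18, H2-Q4 by 2.14 ± 0.12, H2-T23 by 1.51 ± 0.09 and H2-M3 by 1.43 ± 0.13. With all H2-Q rows summed the difference was 2.59 ± 0.11. H2-Q8 was not tested, since it had 34 counts in 1 library and 0 in the others. Without MC38 supernatant replicate 3 and control replicate 2 the values were 5.25 for H2-Q6, 4.64 for H2-Q7, 2.27 for H2-T22, 2.18 for H2-Q4, 1.57 for H2-T23 and 1.67 for H2-M3. H2-K1 was higher by 1.86 ± 0.10, B2m by 1.85 ± 0.10 and Nlrc5 by 1.16 ± 0.10, and 8 of 12 other nonclassical genes tested were higher and 2 lower. Fibroblast and endothelial genes summed to 166.5 to 3119 CPM (median 170.3) after MC38 supernatant and 21.2 to 62.6 CPM in controls, with 5 of 7 tested higher and 0 lower. Neutrophil genes summed to 1460 to 1768 against 2031 to 2600 CPM, with 2 of 10 higher and 6 lower. Their part was not tested.

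After LLC supernatant fewer members differed from the control. H2-Q6 was lower, by -1.30 ± 0.23 on the log2 scale (adjusted p = 0.000583), as was H2-Q7 (-1.03 ± 0.26, adjusted p = 0.00558), and H2-M3 was higher by 0.46 ± 0.13 (adjusted p = 0.00827). Of all genes tested 68.4% were called, 36.1% lower and 32.3% higher. H2-T22 (0.03 ± 0.18, adjusted p = 0.892) and H2-T23 (-0.02 ± 0.09, adjusted p = 0.87) did not pass. H2-Q4 differed by -0.24 ± 0.13 (adjusted p = 0.118), and by -0.34 (adjusted p = 0.00701) without control replicate 2, a foreign-transcript library. Without both foreign-transcript libraries of the culture H2-Q6 differed by -1.19 (adjusted p = 0.000247), H2-Q7 by -1.02 (adjusted p = 0.0266), H2-Q4 by -0.32 (adjusted p = 9.79e-06) and H2-M3 by 0.58, and H2-T22 (-0.08) and H2-T23 (-0.06) did not pass. B2m was higher by 0.50 ± 0.10 and H2-K1 by 0.30 ± 0.10, while H2-Q5 (-0.85 ± 0.16), H2-Q9 (-1.38 ± 0.44) and H2-T10 (-0.43 ± 0.12) were lower. Dendritic cell genes summed to 71.2 to 86.3 CPM in controls, 1.03 to 1.90 CPM after LLC supernatant and 5.52 to 7.06 CPM after MC38 supernatant, with 4 of 6 tested lower than in controls after either supernatant and 1 higher after MC38 supernatant. Their part was not tested.

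Set against each other, the supernatants differed in all 6 members tested, each higher with MC38 (40.1% of genes tested were called, 21.6% higher). The log2 difference was 6.33 ± 0.25 for H2-Q6 (80.2-fold, adjusted p = 8.36e-08), 5.57 ± 0.29 for H2-Q7 (47.4-fold), 2.38 ± 0.14 for H2-Q4, 2.27 ± 0.20 for H2-T22, 1.53 ± 0.10 for H2-T23 and 0.98 ± 0.13 for H2-M3. The supernatant libraries are shared with the comparisons above, and in the LLC supernatant libraries H2-Q6 was under 1 CPM. With all H2-Q rows summed the difference was 2.95 ± 0.12. Without MC38 supernatant replicate 3 and control replicate 2 the values were 6.44 for H2-Q6, 5.66 for H2-Q7, 2.5 for H2-Q4, 2.35 for H2-T22, 1.64 for H2-T23 and 1.09 for H2-M3. T and NK cell genes summed to 1.03 to 1.36 CPM after MC38 and 4.06 to 4.59 CPM after LLC supernatant, and Cd3e was at most 0.0905 CPM in both. Neutrophil genes summed to 1460 to 1768 against 1701 to 1758 CPM, with 9 of 10 higher after MC38 supernatant. Fibroblast and endothelial genes summed to 166.5 to 3119 CPM (median 170.3) against 58.7 to 66.3 CPM, with 4 of 7 tested higher and 0 lower. Their part was not tested.

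Because most class I genes moved together, each member was also set against H2-K1 in the same library, as a log2 ratio of CPM. The differences between groups were tested by exact 2-sided permutation, adjusted over 7 ratios in each comparison. Between TuMon1 and TuMon2 the ratio was higher in TuMon1 for the sum of H2-Q6 and H2-Q8 by 2.13 ± 0.07 (SE), for H2-Q7 by 1.62 ± 0.07, for H2-T22 by 0.35 ± 0.12 and for H2-Q4 by 0.21 ± 0.03. It was lower for H2-T23 by -0.57 ± 0.07, and each of these had an exact permutation p = 0.0286, the smallest that 4 against 4 libraries allow (adjusted p = 0.0333). For H2-M3 the ratio differed by -0.15 ± 0.07 (exact permutation p = 0.0857). In this comparison H2-T23 was thus higher in TuMon1 by less than H2-K1, and the H2-Q genes by more.

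In MC38 tumor against spleen monocytes the ratio to H2-K1 was higher for the sum of H2-Q6 and H2-Q8 (2.27 ± 0.12), H2-Q7 (1.97 ± 0.06), H2-T22 (0.90 ± 0.08) and H2-Q4 (0.66 ± 0.02), and lower for H2-T23 (-0.23 ± 0.07) and H2-M3 (-0.20 ± 0.05), each with an exact permutation adjusted p = 0.0286. Without the foreign-transcript libraries, an alternative chosen after seeing the data that leaves 1 spleen library and no test, these differences were 2.25, 1.89, 0.89, 0.69, -0.28 and -0.22. In LLC tumor against spleen monocytes no ratio passed, with H2-Q4 (0.58 ± 0.08), H2-Q7 (0.58 ± 0.16), H2-T22 (0.57 ± 0.17), H2-T23 (0.21 ± 0.08) and H2-M3 (-0.29 ± 0.10) each at an exact permutation adjusted p = 0.08. The ratio of H2-Q6 there differed by 0.69 ± 0.26 (exact permutation adjusted p = 0.114).

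In LLC macrophages against TuMon2 it was lower for H2-T22 (-1.21 ± 0.17) and H2-T23 (-1.05 ± 0.06) and higher for H2-Q6 (0.86 ± 0.11) and H2-M3 (0.25 ± 0.07), each with an exact permutation adjusted p = 0.04. H2-Q7 (0.50 ± 0.14) had an exact permutation adjusted p = 0.0667 and H2-Q4 (0.07 ± 0.10) of 0.486. In MC38 macrophages against TuMon1 the ratio of H2-M3 differed by 0.03 ± 0.04 (exact permutation adjusted p = 0.4), while that of the sum (-0.47 ± 0.07), H2-Q7 (-0.45 ± 0.08), H2-T22 (-0.45 ± 0.14) and H2-T23 (-0.23 ± 0.05) was lower. In MC38 against LLC macrophages the ratio was higher for H2-T22 (1.11 ± 0.19), the sum (0.80 ± 0.12), H2-Q7 (0.67 ± 0.15) and H2-T23 (0.25 ± 0.04) and lower for H2-M3 (-0.37 ± 0.03), each with an exact permutation adjusted p = 0.04. H2-Q6 alone (-0.20 ± 0.12) had an exact permutation adjusted p = 0.2 and H2-Q4 (-0.03 ± 0.13) of 1. In culture no ratio could pass, since the smallest exact permutation p was 0.1 between the supernatants and 0.0571 against the controls. There the ratio of H2-T23 differed between the supernatants by -0.03 ± 0.02, and that of H2-Q6 by 4.82 ± 0.24. Without MC38 supernatant replicate 3 these were -0.01 and 4.86.

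**Figure D5:**
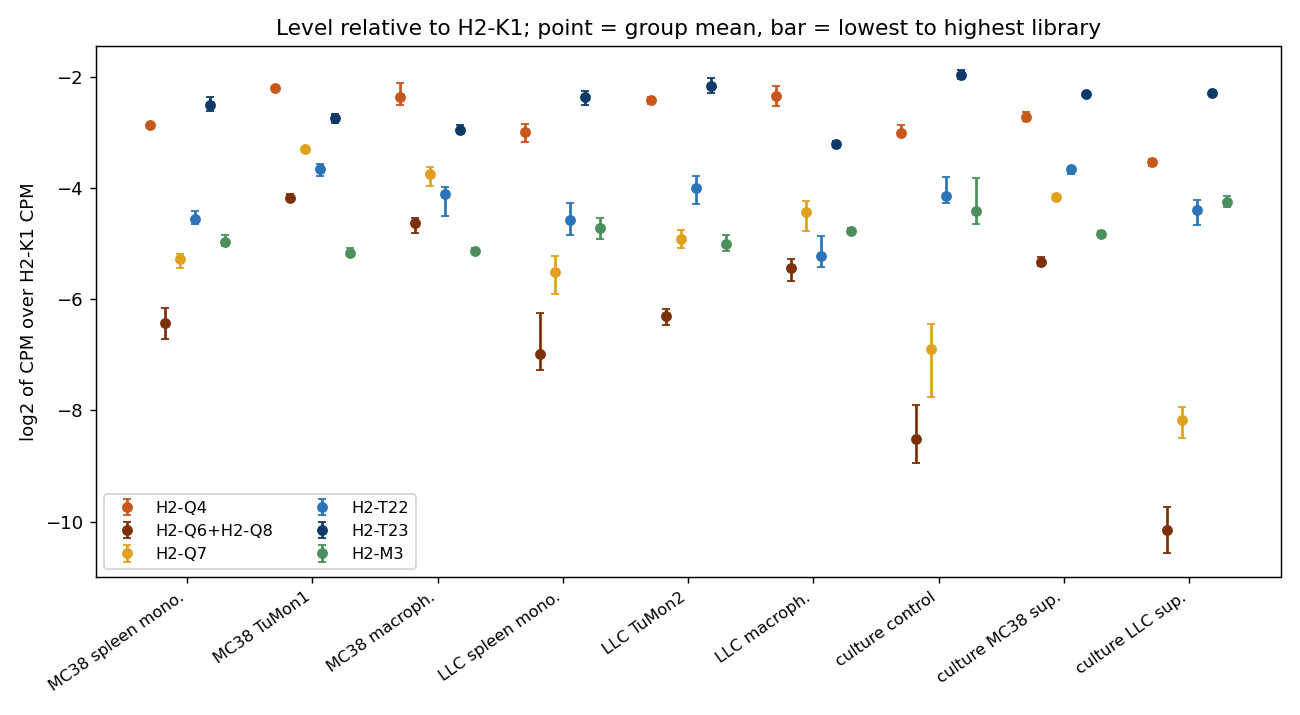
Log2 of each member's CPM over the CPM of H2-K1 (y axis) by group (x axis), with the group mean as a point and the lowest to highest library as a bar. The sum of H2-Q6 and H2-Q8 spans from -10.16 after LLC supernatant to -4.17 in TuMon1, while H2-M3 lies between -5.16 and -4.24 in all groups.

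Likeness of pattern was measured as the correlation of log2 CPM over the 24 libraries from animals, which share groups and scaling, and is given as a description. The H2-Q genes resembled each other most, with Pearson r = 0.985 for H2-Q4 and H2-Q7 and 0.976 for H2-Q6 and H2-Q7, and H2-T22 resembled H2-T23 (r = 0.953). Across these sets the correlation was lower, with r = 0.644 for H2-Q6 and H2-T23. Among genes that are no members, H2-Q6 was most like Ly6a (r = 0.984, Spearman's rho = 0.967), the gene of the Sca1 antigen used to sort TuMon1 and TuMon2, then H2-Q5 (r = 0.965) and H2-Q9 (r = 0.957). The sum of H2-Q6 and H2-Q8 was likewise nearest to Ly6a (r = 0.980), H2-Q5 (0.975) and the interferon-induced gene Ifi44 (0.963). H2-Q4 was most like H2-Q5 (r = 0.986), Lgals3bp (0.982) and Batf2 (0.981), and H2-Q7 like H2-Q5 (0.984), Lgals3bp (0.968) and Sco1 (0.964). The T region genes had other neighbors. H2-T23 was most like the immunity-related GTPase gene Ifi47 (r = 0.986), Sp110 (0.986) and Uba7, the activating enzyme of the ubiquitin-like ISG15 (0.983), and H2-T22 like Xaf1 (0.978), Tor3a (0.975) and the peptide transporter gene Tap1 (0.969). H2-M3 was most like the classical heavy chain gene H2-K1 (r = 0.975), the cholesterol exporter gene Abcg1 (0.967) and the costimulatory receptor gene Cd40 (0.967).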

How the data were processed

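Stranded libraries were made with 14 PCR cycles from 100 ng of RNA, per the labels' protocols. The authors deposited 1 table of estimated counts (expected counts) per gene, not normalized as far as its column totals show, and how reads were assigned to genes is not recorded in the labels. Of its values 14.62% are not whole. Per the submitters' processing notes the build was GRCm38 (mm10) and CASAVA 1.8.2 was used. For the aligner and the counter, a name is not given in the sources used here. Columns were matched to samples by the IDs in their descriptions and groups were taken from titles. Gene IDs matched a symbol for 24375 of 24475 rows, and the 100 others hold 1.43% of counts.

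The design had foreseen counts. Estimated counts were rounded, which changed library totals by at most 0.000368%, and tested with edgeR 4.0.16 (R 4.3.3) by its quasi-likelihood test with filterByExpr and TMM scaling, fitted to the 24 libraries from animals (13200 genes, TMM factors 0.845 to 1.18) and the 10 from culture (12603 genes, factors 0.937 to 1.09) separately. A gene was called at a Benjamini-Hochberg adjusted p of at most 0.05 over all genes tested. The SE is the log2 difference divided by the root of its F statistic. CPM use TMM library sizes, and a per-kilobase level divides by the length of the transcript with the longest coding sequence (GENCODE M21). Depth sets the precision of low values. The SE and SD given include the spread between libraries as well as counting error. The script was tested on simulated data.

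The members, gene lists and tests were chosen with earlier results of these data known. Besides the members, the text names up to 4 genes per list by smallest adjusted p between the tumor monocyte subsets, H2-K1, H2-D1, B2m and Nlrc5, and the 3 genes most like each member. Klrc1, Klrd1 and Cd3e are named in addition, chosen after their values were seen. Other settings tried were scaling by RLE or by the upper quartile, no filter, a filter of 5 CPM in 3 libraries, DESeq2 1.42.0, fits of the compared groups only, a replicate block, leaving out each library, leaving out the 5 foreign-transcript libraries (for ratios to H2-K1 chosen after seeing the data), and summing the 9 H2-Q rows. Every pair of replicates differed beyond sampling noise (lowest chi-square per degree of freedom 4.67). Same-numbered replicates did not deviate together in every comparison (r between -0.36 and 0.27), so numbers were not taken as pairs. In macrophages against monocytes, however, 3 of 4 pairs correlated best with their own number in MC38 and in LLC tumors (r up to 0.15). A pairing there is thus possible, and the replicate block allows for it.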

Additional observations from a re-analysis of the deposited data

Results flagged for a closer look

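Of 44 groups of 4 libraries examined for a library far from the others, of which chance gives about 1 in 20, a gap was found in these cases. H2-Q6 was at 18.4 CPM in replicate 3 of LLC spleen monocytes, above the other libraries of its group at 8.08 to 8.67 CPM. H2-T22 was at 114.8 CPM in replicate 4 of MC38 macrophages, below the others at 191.9 to 204.3 CPM.

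The tumor minus spleen difference was larger with MC38 than with LLC, by an interaction test in edgeR, by 1.70 for H2-Q4, 2.29 for H2-Q6, 3.03 for H2-Q7, 1.96 for H2-T22, 1.17 for H2-T23, 1.71 for H2-M3 and 3.30 for the sum of H2-Q6 and H2-Q8 on the log2 scale. The macrophage minus monocyte difference was lower with MC38 than with LLC, with values of -0.58 for H2-Q4, -1.68 for H2-Q6, -1.31 for H2-Q7, -0.57 for H2-M3 and -1.68 for the sum. For H2-T23 it was higher, by 0.46.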

How the results depend on the processing

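Over 84 differences of single genes, 1440 values were computed under other settings, of which 1352 kept their direction and side of the threshold, 47 lost their call, 17 gained one and 24 changed direction or reached 0. Calls changed in 14 of the 84. The 24 fell on 6 differences near 0, and neither these 24 values nor the reported ones passed the test. H2-Q4 between LLC macrophages and monocytes (0.02) was at -0.03 with DESeq2, RLE scaling or no filter and below 0 in 5 of 8 fits with 1 library left out (-0.03 to 0.04). Between the spleen groups H2-T22 (0.05) was below 0 in 3 of 8 such fits (-0.06 to 0.12), H2-T23 (-0.08) at 0.02 with only those groups and 0.15 without the foreign-transcript libraries, and H2-M3 (-0.20) at 0.01 without those libraries. After LLC supernatant H2-T22 (0.03) was below 0 in 2 of 7 such fits (-0.09 to 0.20) and at -0.08 without the foreign-transcript libraries. H2-T23 there (-0.02) was at 0.02 with DESeq2 or RLE scaling, 0 with no filter, 0.12 with only those groups and 0 or above in 3 of 7 such fits (-0.08 to 0.04). The counts of members that follow include H2-Q8 where it was tested. LLC tumor against spleen monocytes had 5 members called and 3 to 5 with 1 library left out. MC38 against LLC spleen monocytes had 0, but 2 with DESeq2, 2 under upper quartile scaling, 1 with no filter and 0 to 2 with 1 library left out (2 without LLC spleen replicate 3, 1 without LLC spleen replicate 4 and 1 without MC38 spleen replicate 4). LLC macrophages against monocytes had 3 to 5, the macrophage change 4 to 5, LLC supernatant against control 3 to 4 and the tumor minus spleen change 6 to 7, where the additional member was H2-Q8 with DESeq2. The other comparisons held 7 or 6 throughout. H2-T23 between LLC tumor and spleen monocytes was called when only those groups were fitted (0.19, adjusted p = 0.0344).

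With the replicate number as a block, H2-Q6 in LLC tumor against spleen monocytes (0.54, adjusted p = 0.0562) and its sum with H2-Q8 (0.53, adjusted p = 0.0612) lost their call, and no other call changed. In MC38 and in LLC macrophages against monocytes 3 of 4 replicates correlated best with their own number, and fewer did in the other comparisons. Upper quartile scaling moved the median over all genes by -0.14 in MC38 tumor against spleen monocytes, 0.11 in MC38 and 0.15 in LLC macrophages against monocytes. Between spleen groups it moved the count over all genes from 1903 higher and 1852 lower to 2176 and 1083, RLE scaling to 2083 and 1270, and DESeq2 to 2191 and 1444. The cause was not tested. Ratios to H2-K1 without the foreign-transcript libraries, an alternative chosen after seeing the data, each moved by less than 1 SD. At this depth H2-Q8 could not be tested in culture, and H2-Q6 was under 1 CPM after LLC supernatant.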
